A study of Mus musculus with 2 samples.

Results

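Gm9968 and Gm15713 are long non-coding RNAs (lncRNAs) transcribed from the strand opposite Zbtb20 on mouse chromosome 16, and both lie inside the span of that gene. They were chosen by name and Ensembl gene identifier (ENSMUSG00000055370 and ENSMUSG00000085499) because their levels differed between the libraries, so their diet ratios are given as a description and not tested. They are 2 of 614 known lncRNAs in the deposited table, and of 886 lncRNAs when the table of numbered lncRNAs is included. Total RNA was sequenced from liver of wildtype C57BL/6 mice at 27 weeks after birth. One library came from an animal sample given a diet with 60% fat for 23 weeks, and the other from a sample on normal diet. There is 1 library per diet, the labels do not say whether animals were pooled, and every interval below covers counting error only. The source label is hepatocyte, but the protocol has whole liver removed, frozen and put into Trizol, so the values are those of tissue.

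Antisense lncRNAs arise from the strand opposite a protein-coding gene. Some act on that gene in cis, by transcription through its promoter or by pairing with its RNA, while for many no function is known. Zbtb20 encodes a BTB and zinc finger transcription repressor, known in liver for the silencing of alpha-fetoprotein after birth. It is a very long gene with many alternative first exons, most of its length being introns.

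In the GENCODE M21 annotation of GRCm38, Zbtb20 spans chr16:42875881-43642602 on the plus strand, a length of 766.7 kb with 21 transcripts, of which 12 are coding. Gm9968 lies at chr16:43345887-43363666 on the minus strand, has 3 exons and a spliced length of 2990 bases. Gm15713 lies at chr16:43410518-43420196 on the same strand, has 5 exons and a spliced length of 1546 bases. Both are annotated with the antisense biotype and a single transcript each. Their starts are 56.5 kb apart and 46.9 kb separates their spans, so they share no exon and no promoter window. The files give no positions, and the submitters' processing notes name the build mm8, so these coordinates come from the annotation and not from the counting.

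The lncRNAs differ in how they meet Zbtb20. Gm9968 starts head to head with a group of Zbtb20 first exons. The coding transcript Zbtb20-219 starts 207 bases and Zbtb20-216 starts 538 bases from the start of Gm9968, both leading away from it. All 104 bases of exon 1 of Gm9968 lie opposite an exon of the non-coding, intron-retaining transcript Zbtb20-213, and 0 of its bases lie opposite an exon of a coding transcript. The other 2886 exon bases, in exons 2 and 3, lie in intron sequence of Zbtb20. Gm15713 lies whole within an intron, with 0 of its bases opposite any Zbtb20 exon and 94.5 kb free of Zbtb20 exons around it. The first coding base of Zbtb20 lies 208.1 kb from the start of Gm9968 and 151.6 kb from the start of Gm15713. Besides Zbtb20, 9 genes are annotated within its span. Of these, 3 have the antisense biotype, and Gm9968 and Gm15713 are the 2 that are listed in the known table.

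**Figure D1:**
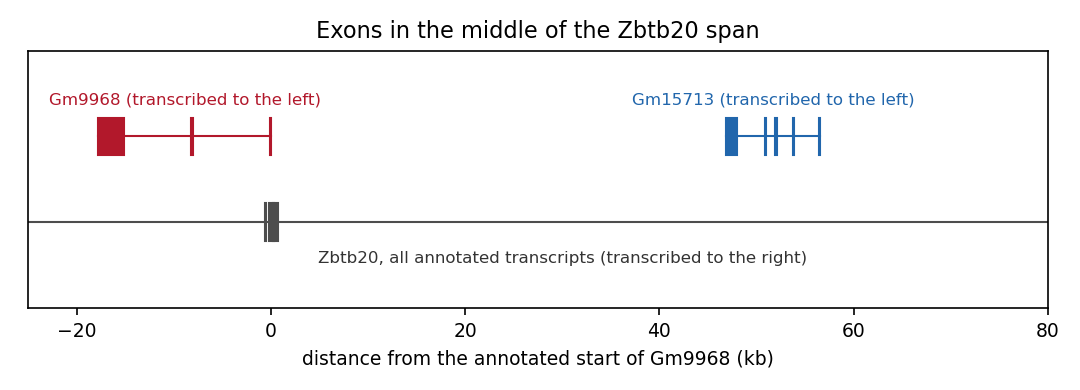
Exons (boxes) and introns (lines) of Gm9968, Gm15713 and all annotated Zbtb20 transcripts, against the distance from the start of Gm9968 in kb. The start of Gm9968 sits at a cluster of Zbtb20 exons, and no Zbtb20 exon lies near Gm15713.

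The sequences around the starts are shown because the lncRNAs had similar diet ratios and start at separate promoters. Each line is a RefSeq promoter window on GRCm38.p6, minus strand, with the 50 transcribed bases in capitals (chr16:43363617-43363916 for Gm9968 and chr16:43420147-43420446 for Gm15713).
Gm9968 promoter: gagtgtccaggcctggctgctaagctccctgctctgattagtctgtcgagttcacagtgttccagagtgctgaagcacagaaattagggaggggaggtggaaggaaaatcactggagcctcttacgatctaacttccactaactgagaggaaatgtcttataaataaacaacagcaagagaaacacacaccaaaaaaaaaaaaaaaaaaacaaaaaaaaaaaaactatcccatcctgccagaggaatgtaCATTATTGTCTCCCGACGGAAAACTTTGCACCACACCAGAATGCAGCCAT
Gm15713 promoter: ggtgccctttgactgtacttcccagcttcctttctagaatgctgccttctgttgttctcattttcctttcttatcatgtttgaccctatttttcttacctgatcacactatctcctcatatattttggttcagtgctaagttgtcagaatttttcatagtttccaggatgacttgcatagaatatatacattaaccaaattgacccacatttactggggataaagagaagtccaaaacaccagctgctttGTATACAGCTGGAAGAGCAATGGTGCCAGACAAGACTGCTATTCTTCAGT
The whole Gm9968 window lies opposite Zbtb20-213, and its first 44 bases lie opposite the first exon of the coding transcript Zbtb20-219. The GC content was 42.7% for Gm9968, above that of 15.6% of 32851 RefSeq promoter windows of the same 300 bases, and 39.3% for Gm15713, above that of 8.92%. The Gm9968 window held 4 CpG dinucleotides and the Gm15713 window 0, against a median of 7 over all windows. The Gm9968 window also holds a run of 19 adenines, while the longest such run at Gm15713 is 4.

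Both windows were searched on both strands for 7 motifs. The TATA box letters TATAAA occurred once in the Gm9968 window, beginning 92 bases before the start, and did not occur in the Gm15713 window. These letters are found in 13.6% of all windows. None of the other 6 occurred in either window. They were CCAAT (in 37.4% of all windows), the GC box GGGCGG (35.7%), the half-site of nuclear receptors AGGTCA (16.3%), the STAT site TTCNNNGAA (8.30%), the E box CACGTG (7.15%) and the FOXA site TGTTTAC (3.65%). No motif searched contains another. The absence of a match says only that these letters are not in these 300 bases.

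The first splice junctions are shown because a spliced lncRNA holds them and unspliced Zbtb20 RNA does not. Exon 1 is in capitals and the first 100 bases of exon 2 follow in lower case, from the GENCODE M21 transcripts.
Gm9968 exons 1 and 2: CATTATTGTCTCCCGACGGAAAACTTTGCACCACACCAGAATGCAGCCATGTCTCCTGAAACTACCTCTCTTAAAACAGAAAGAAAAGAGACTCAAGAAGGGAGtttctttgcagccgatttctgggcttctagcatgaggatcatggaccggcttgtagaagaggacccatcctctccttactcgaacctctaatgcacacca
Gm15713 exons 1 and 2: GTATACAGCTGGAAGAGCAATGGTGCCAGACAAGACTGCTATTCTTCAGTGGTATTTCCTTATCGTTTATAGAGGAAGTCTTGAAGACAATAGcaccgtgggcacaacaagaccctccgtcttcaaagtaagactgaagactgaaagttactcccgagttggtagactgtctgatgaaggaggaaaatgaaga
The exons before the last make up 305 bases of Gm9968 and 382 bases of Gm15713. The last exon holds 89.8% of the Gm9968 transcript and 75.3% of the Gm15713 transcript. Most of the sequence in which a read can fall is therefore a single exon within a Zbtb20 intron. The last 60 bases of each transcript are shown with the hexamer of the polyadenylation signal in capitals.
Gm9968 end: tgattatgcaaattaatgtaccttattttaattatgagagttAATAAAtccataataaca
Gm15713 end: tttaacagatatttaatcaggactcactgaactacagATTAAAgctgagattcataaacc
AATAAA begins 18 bases before the end of Gm9968, and the variant ATTAAA begins 23 bases before the end of Gm15713.

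Exact stretches of either transcript were rare in other annotated RNAs. Of the 2941 stretches of 50 bases in Gm9968, 0 recur in a transcript of another gene on the same strand. On the opposite strand 55 recur, all of them in Zbtb20. Of the 1497 stretches of Gm15713, 0 recur in either orientation. Apart from Zbtb20, no annotated transcript thus shares 50 exact bases with either lncRNA. At 30 bases, 6 of 2961 stretches of Gm9968 recur on the same strand in 4 other genes. On the opposite strand 75 recur in Zbtb20 and 3 in 1 other gene. Of the 1517 stretches of 30 bases in Gm15713, 0 recur in either orientation. The longest open reading frame was 100 codons in Gm9968 and 64 codons in Gm15713. These lie on either side of the median of 75 codons over the 606 entries of the known table found in GENCODE M21. The 606 include Fam169b, annotated there as protein coding. The GC content of the transcripts was 39.5% and 42.9%, below the median of 47.3% over the same 606 entries.

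The known table was scaled to totals of 193538 reads on high fat diet and 242194 on normal diet. The median known lncRNA held 24 and 30 of these reads. Reads of genes outside the table are not part of these totals, so the totals do not give the depth of the whole libraries. The table is of entries deposited as known lncRNAs. It listed 0 of 16 genes of a Zbtb20 list (Zbtb20 itself, the alpha-fetoprotein gene Afp and others) and 0 of 6 coding markers of hepatocytes. Of 10 lncRNAs expressed in liver 4 were listed, their reads summing to 136 on high fat diet and 206 on normal diet. Of 10 markers of other liver cells 2 were listed, with 54 and 90 reads. None of these 6 was called. Mir155hg, 1810008I18Rik and Platr4 were under the read minimum for a call given below, so they could not be called. The listed markers of other liver cells went opposite ways. Gm12840 had 88 reads on normal diet and 46 on high fat diet, while Mir155hg had 2 and 8. The part of these 6 in the results on Gm9968 and Gm15713 was not tested.

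Gm9968 was counted with 660 reads on normal diet and 1672 on high fat diet. In CPM, the reads of an lncRNA scaled to 1000000 reads of the known table, its values on high fat and on normal diet were 8639 (95% Clopper-Pearson interval 8066 to 9242) and 2725 (2439 to 3035). The intervals cover counting error only and Gm9968 was chosen for its ratio, so nothing is read from their lying apart. Gm9968 was 3.17-fold higher in the high fat diet library (2.79 to 3.61), a log2 ratio of 1.66.

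For Gm15713 there were 492 reads on normal diet and 1284 on high fat diet. Its CPM values were 2031 (1786 to 2301) and 6634 (6133 to 7166). As for Gm9968, the high fat diet library is the higher one, and nothing is read from the intervals lying apart. Gm15713 was 3.27-fold higher (2.82 to 3.80), a log2 ratio of 1.71.

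**Figure D2:**
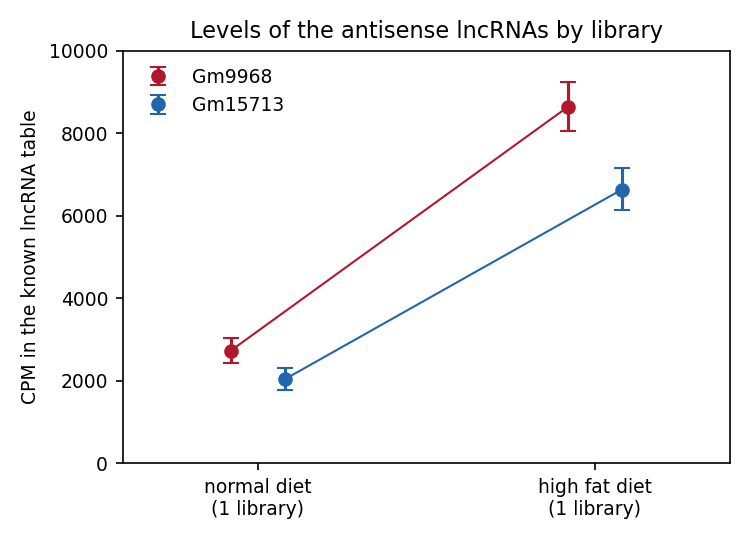
CPM of Gm9968 and Gm15713 in the normal diet and the high fat diet library (1 library each, points), with 95% Clopper-Pearson intervals as bars that cover counting error. Gm9968 goes from 2725 to 8639 CPM and Gm15713 from 2031 to 6634 CPM.

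By a rule of at least 2-fold between the libraries and at least 20 reads in the higher one, both were called higher. Of 364 known lncRNAs that reached 20 reads, 28 were called higher, 7.69%, and 30 lower, 8.24%. The choice of the lncRNAs rests on these ratios, so nothing is read from both being among the 28. The same holds for the lower limits of their intervals, 2.79-fold and 2.82-fold, which lie above the 2-fold threshold and cover counting error only. The authors' deposited mark of both as significantly higher rests on the same libraries and CPM values, so it adds no separate support. With 1 library per diet, the difference between diets cannot be told apart from a difference between the animals or the preparations. In bulk tissue, more cells of a type and more RNA per cell cannot be told apart either.

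Together, Gm9968 and Gm15713 held 1.53% (1.45 to 1.61) of the read pairs of the known table in the high fat diet library, 2956 reads. In the normal diet library they held 0.476% (0.438 to 0.516), 1152 reads. Among the 614 known lncRNAs, Gm9968 stood at rank 19 by CPM in the high fat diet library and at rank 56 in the normal diet library. Gm15713 stood at rank 26 and rank 72. Both are thus among the more abundant lncRNAs of either library and move up among them in the high fat diet library.

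**Figure D3:**
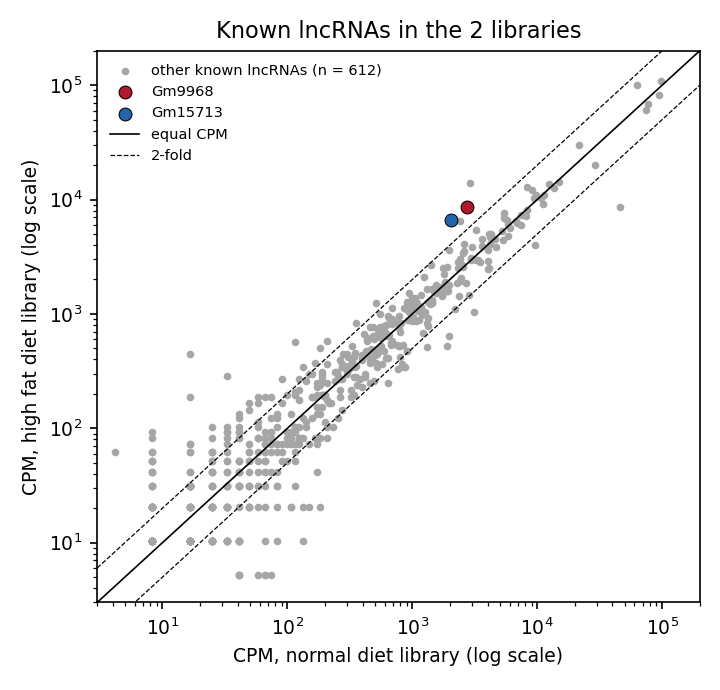
CPM of each known lncRNA in the normal diet library (x) and the high fat diet library (y), both on log scales, with lines at equal CPM and at 2-fold. Gm9968 and Gm15713 lie above the upper 2-fold line.

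The 8 lncRNAs next to Gm9968 and Gm15713 in CPM in the high fat diet library are given as a description. They were matched in the library in which Gm9968 and Gm15713 are high, so nothing is read from the contrast of their ratios. In the normal diet library all 8 had more CPM than either, the lowest being Gm26869 with 5458 CPM. Of the 8, 7 differed by less than 2-fold, with log2 ratios from -0.29 (Gm16984) to 0.33 (Gm26869). The eighth, Gm26584, was lower, with 11208 reads on normal diet and 1660 on high fat diet (log2 ratio -2.43).

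Reads per length of exon put Gm15713 above Gm9968. In the high fat diet library Gm15713 had 831 reads per kb of exon and Gm9968 559 reads per kb, a ratio of 1.49 (1.34 to 1.65). In the normal diet library the values were 318 and 221 reads per kb, a ratio of 1.44 (1.22 to 1.71). The order of the levels is thus the same in both libraries, and in each the interval of the ratio excludes 1. By raw reads the order is the reverse, since Gm9968 is longer, with 1.30 times (1.17 to 1.45) and 1.34 times (1.13 to 1.59) the reads of Gm15713. On the scale of CPM per kb of exon, the levels of Gm15713 were 4291 (high fat diet) and 1314 (normal diet), and those of Gm9968 were 2889 and 911. The median over the 606 annotated entries of the known table was 86.6 and 81.7 CPM per kb. Per kb, Gm15713 moved from rank 64 in the normal diet library to rank 21 in the high fat diet library, and Gm9968 from rank 88 to rank 30. Exon lengths are those of GENCODE M21, which need not be the annotation used in the counting.

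**Figure D4:**
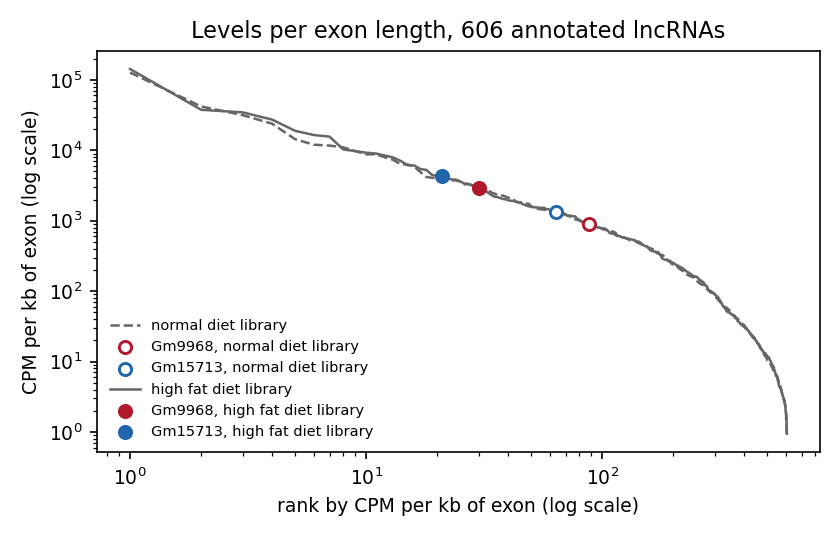
CPM per kb of exon (y, log scale) against rank (x, log scale) for the 606 annotated entries of the known table in each library (lines). Gm9968 and Gm15713 are open points (normal diet) and filled points (high fat diet). Gm15713 stands above Gm9968 in both libraries.

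The diet ratios of Gm9968 and Gm15713 differed little. The log2 ratio of Gm9968 minus that of Gm15713 was -0.04 (exact conditional 95% interval -0.33 to 0.24). As an odds ratio of read pairs, the fold of Gm9968 was 0.971 times that of Gm15713 (0.795 to 1.18). No difference between them was detectable with these read numbers, which does not show that their ratios are equal. This comparison does not depend on how the libraries were scaled, since both lncRNAs share the same totals. Because both were chosen for a high ratio, their likeness is a description.

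No label or header says whether the counting used strand. Reads from unspliced Zbtb20 RNA cannot be told apart from those of Gm9968 and Gm15713. Such RNA can cover every exon of both lncRNAs where it starts before the Gm9968 span on the Zbtb20 strand. Started at Zbtb20-219 or Zbtb20-216, it covers Gm15713 but no exon of Gm9968. Zbtb20 is not listed in the table, and its own level was not analysed here.

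The lncRNAs with the most similar pattern were sought among the 212 that reached 100 reads in either library, by the absolute difference in log2 ratio over the 2 libraries. For each of Gm9968 and Gm15713 the nearest was the other one, at 0.04. Next came C530050E15Rik (chromosome 13), inside the span of Ripor2 on the opposite strand, at 0.18 from Gm9968 and 0.22 from Gm15713. Its reads numbered 50 on normal diet and 112 on high fat diet, a log2 ratio of 1.49 (0.78 to 2.23) whose interval includes both values. After it came Gm44662 (chromosome 7), which overlaps on the opposite strand the hepcidin gene Hamp, its paralog Hamp2 and the transcription factor gene Usf2, at 0.24 and 0.29. Its reads numbered 582 and 1246, a log2 ratio of 1.42 (1.22 to 1.63). With 2 libraries, likeness in this measure is likeness of a single ratio.

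Both lncRNAs stand far from the other listed lncRNAs of chromosome 16. The nearest toward lower coordinates is D930030I03Rik, 4.89 Mb from Gm9968, with 6 reads on normal diet and 12 on high fat diet, under the minimum of 20 reads. The nearest toward higher coordinates is Dubr, 7.30 Mb from Gm15713, with 80 and 74 reads (log2 ratio 0.21, interval -0.47 to 0.89). Of the 22 other lncRNAs of chromosome 16, 14 reached 20 reads. None of the 14 was called higher and 2 were called lower, Gm26635 inside Hic2 (log2 ratio -1.21) and 2610020F03Rik inside Map3k13 (-1.22), against 7.69% called higher and 8.24% called lower over the 364. The median log2 ratio of the 14 was -0.34, with a highest value of 0.34 for Gm7976.

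**Figure D5:**
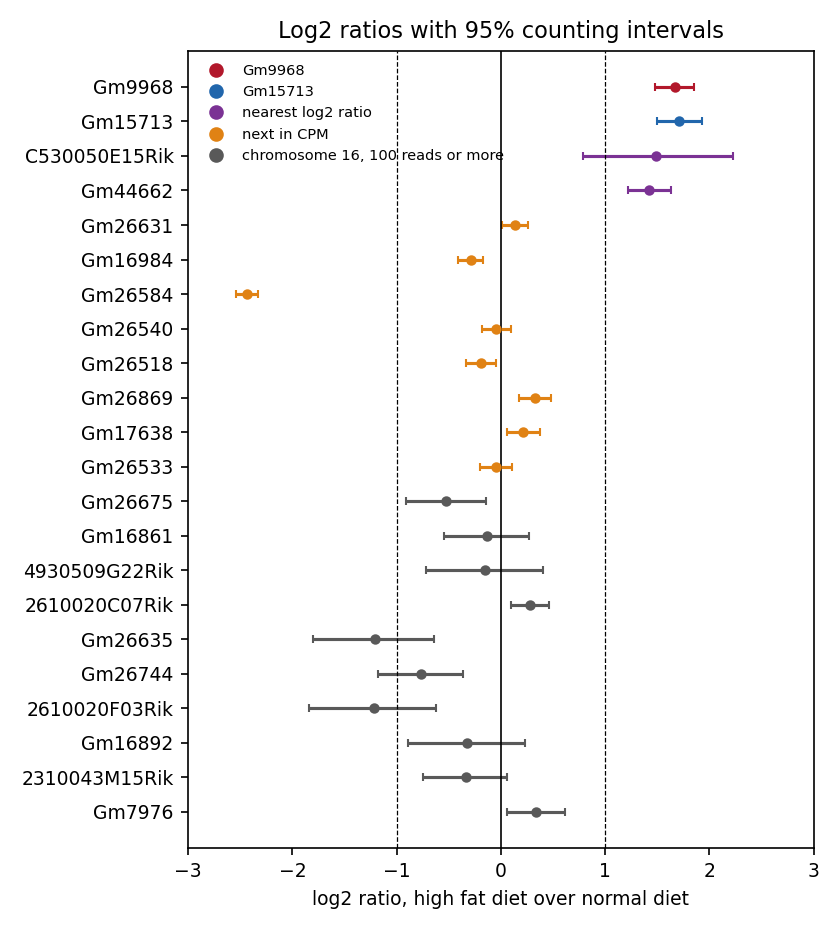
Log2 ratio of high fat diet over normal diet (x) with 95% counting intervals for Gm9968, Gm15713, the lncRNAs of nearest log2 ratio, those next in CPM in the high fat diet library, and those of chromosome 16 with at least 100 reads. Dashed lines mark 2-fold. The intervals of Gm9968 and Gm15713, chosen for their ratios, lie to the right of the upper one, from which nothing is read.

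Other lncRNAs of the same kind are given as background. Of the 79 other antisense lncRNAs, 62 reached 20 reads, of which 4 were called higher and 2 lower, with a median log2 ratio of -0.03. Of 147 other lncRNAs that lie within the span of a coding gene on the opposite strand, 119 reached 20 reads, of which 5 were called higher and 8 lower, with a median of -0.02. Over all 364 the median was -0.01. Of these 364, 7.69% were called higher and 8.24% lower. Gm9968 and Gm15713, with log2 ratios of 1.66 and 1.71, were chosen for their ratios, so nothing is read from the contrast with these groups.

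Besides Zbtb20, 3 coding genes hold a pair of listed lncRNAs on the opposite strand with at least 20 reads each. In Map3k13, Gm26744 and 2610020F03Rik had log2 ratios of -0.77 and -1.22. In Tbc1d16, Gm26888 and Gm11752 had ratios of -0.28 and -0.26, a difference of 0.02, the latter with an interval of -1.58 to 0.99. In Baz2b, Gm13572 and Gm13620 had ratios of 0.88 and -0.05. Of these 3 pairs, 1 lay closer together than Gm9968 and Gm15713.

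A list of 52 transcription factor genes active in liver, Zbtb20 among them, was searched for lncRNAs on the opposite strand. Inside their spans, Gm9968 and Gm15713 were joined by Gm26635 alone, opposite Hic2, a zinc finger repressor gene with a BTB domain like Zbtb20. Gm26635 was counted with 202 reads on normal diet and 70 on high fat diet, and with a log2 ratio of -1.21 (-1.80 to -0.64) was called lower. Of its 3199 exon bases, 3091 lie opposite Hic2 exons, so reads of Hic2 and Gm26635 cannot be told apart without strand. Lying partly over such genes were Gm44662 (Usf2), given above, A330033J07Rik (Id4), with 10 reads on normal diet and 26 on high fat diet (log2 ratio 1.70, interval 0.12 to 3.54), and 1010001N08Rik (Gata6), with 16 and 8 reads, under the minimum. Of these, Gm44662 and A330033J07Rik were called higher. They have 163 and 82 exon bases opposite any exon of a coding gene, summed over all opposite coding genes (for Gm44662 Hamp, Hamp2 and Usf2). The call of A330033J07Rik is lost when an exact binomial test of its pairs is also required.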

How the data were processed

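Liver RNA was sequenced in 1 library per diet, grouped by the diet label. The submitters' processing notes name HISAT2, HTSeq and DESeq and the build mm8. Their versions and roles, the annotation and the use of strand are not given in the sources used. The deposited values are CPM, scaled to the reads of each table, and the deposited fold change and its log2 are ratios of these. The deposited p-values are the authors' and were used as adjusted p only in an alternative call rule.

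Dividing by the smallest value of each column gave whole reads for 100% of the values (within 1e-06). All but the values of 1, treated as 0, were even, so intervals used read pairs. Ratio intervals are exact (Clopper-Pearson) intervals of the split of the pairs. They cover counting error only, since there is 1 library per diet. PCR reads without molecular identifiers are not independent molecules, so the intervals may be too narrow even for that error. A count test with replicates could not be fitted. Of 614 identifiers, 606 matched GENCODE M21 (GRCm38). The numbered table held no entry with the read numbers of either lncRNA.

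Named lncRNAs are Gm9968 and Gm15713, the 3 nearest to each in log2 ratio, the 2 next above and below in CPM, those of chromosome 16 with 100 reads, the nearest neighbours, and those opposite the listed transcription factor genes; Gm28592, the lncRNA pairs in 1 coding gene and the lncRNAs that partly overlap a listed gene were added after values were seen. The members and lists were chosen with earlier results of these data known. Alternatives covered scaling, pseudocount, fold and read minimum. Calls and intervals were tried on simulated independent read pairs without variation between animals or preparations, which checks the calculation alone. Python 3.11.15, scipy 1.17.1 and pandas 2.3.3 were used.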

Additional observations from a re-analysis of the deposited data

How the results depend on the processing

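Under other scalings and pseudocounts the log2 ratio of Gm9968 ranged from 1.62 to 1.76 and that of Gm15713 from 1.66 to 1.80, both called higher throughout. Leaving lncRNAs that overlap any exon of an opposite coding gene out of the totals moved all log2 ratios by 0.10, the other 2 scalings by less. At 1.5-fold and 3-fold both stayed called; at 4-fold neither Gm9968 (1.66) nor Gm15713 (1.71) reached the threshold. Their difference stayed at -0.04 with 1 or 5 reads added, and the longest transcript is the whole exon length of each. Over 29 other lncRNAs, 145 of 145 values under these scalings and pseudocounts kept the call, or, where there was none, stayed within the counting interval. Of the known lncRNAs, 58 were called (28 higher, 30 lower). This became 146 without a read minimum, 19 with 100 reads, 124 at 1.5-fold, 15 at 4-fold, 61 (27 higher, 34 lower) with median-of-ratios scaling, 102 by the authors' deposited adjusted p of 0.05 or less, and 31 when an exact binomial test on pairs, added after the data were seen, was also required. Gm9968 and Gm15713 are among the 31, but they were chosen for the ratios of the same read pairs, so nothing is read from that. A330033J07Rik is the 1 named call lost under each of the last 2 rules. The binomial test compares the 2 libraries and not the diets. These rules change by construction which lncRNAs can be called. No paired analysis was possible because there is only 1 library for each diet, so that none could be left out either. The number of reads limits lncRNAs of few reads most, and for Gm9968 and Gm15713 it sets the width of the intervals given.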
